A study of Mus musculus with 6 samples.

Results

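Expression of 10 genes that mark macrophages or that let them take up modified lipoproteins, antibody-coated particles and dying cells was compared between RAW264.7 libraries labelled albiflorin and RAW264.7 libraries labelled RANKL. The genes were Adgre1, Cd68, Lyz2, Mrc1, Msr1, Cd36, Mertk, Fcgr1, Fcgr3 and Apoe, each taken from the deposited table of raw counts by its symbol. Of 41921 rows in that table, 9 carried one of these 10 symbols; none carried Lyz2, which is described from 2 rows without a symbol that the deposited description matches to the Lyz2 protein.

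RAW264.7 is a mouse macrophage-like cell line that the cytokine RANKL can turn into osteoclasts, the bone-resorbing cells. Albiflorin is a monoterpene glycoside of peony root. The series holds 3 albiflorin libraries and 3 RANKL libraries. All 6 came from wild-type cells under an osteoclast differentiation protocol, in which RANKL at 50 ng/mL was given to cells that had been confluent for 3 days. Beyond that shared protocol text nothing states whether cells labelled albiflorin received RANKL, and for albiflorin itself neither dose nor time was found in the labels. No untreated sample was analysed here, so levels before RANKL are unknown. Nothing says that replicates came from separate cultures; the p-values therefore cover the spread among these 6 libraries alone, and that spread may be technical. The albiflorin libraries held 13708041 to 15200418 counts and the RANKL libraries 13673284 to 15489482. In bulk RNA, fewer cells of a type and less RNA per cell cannot be told apart.

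Macrophages clear material from their surroundings with receptors that each recognise a different tag. Scavenger receptors such as the products of Msr1 and Cd36 bind oxidised lipoproteins and other polyanionic or lipid ligands, Fc gamma receptors bind the constant part of IgG, and Mertk binds bridging proteins on the phosphatidylserine of apoptotic cells. Adgre1 encodes F4/80, the classical surface marker of mouse macrophages, Cd68 a heavily glycosylated protein of late endosomes and lysosomes, and Lyz2 the lysozyme by which myeloid cells are often marked. Osteoclasts arise from the same myeloid precursors, and mouse macrophages are known to lose F4/80 as they become osteoclasts.

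Sequences bear on how the lysozyme and Fc gamma receptor genes can be counted. Lyz2 and Lyz1 lie next to each other on chromosome 10, and their coding sequences are identical at 425 of 447 bases (95.1%), with a longest shared run of 118 bases. The first 180 coding bases of both are shown from GENCODE M21 on GRCm38, with the 15 bases that differ between them in capitals.
Lyz2 coding bases 1 to 180: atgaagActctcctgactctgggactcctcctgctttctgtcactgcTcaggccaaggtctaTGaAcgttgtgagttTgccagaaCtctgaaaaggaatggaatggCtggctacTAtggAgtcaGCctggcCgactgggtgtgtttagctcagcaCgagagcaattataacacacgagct
Lyz1 coding bases 1 to 180: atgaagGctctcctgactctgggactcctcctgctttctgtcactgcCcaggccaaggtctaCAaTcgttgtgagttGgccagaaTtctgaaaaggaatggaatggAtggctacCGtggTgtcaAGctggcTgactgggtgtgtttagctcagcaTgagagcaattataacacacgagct
Identical stretches lie between the differences. A read carries no letter that tells the pair apart only where it falls wholly within such a stretch. Fcgr3 and Fcgr2b, an activating and an inhibitory receptor for IgG, are identical at 659 of 787 aligned coding bases (83.7%) with a longest shared run of 129 bases. In the stretch shown, chosen because it lies where the pair is most alike, only the base in capitals differs.
Fcgr3 coding bases 263 to 442: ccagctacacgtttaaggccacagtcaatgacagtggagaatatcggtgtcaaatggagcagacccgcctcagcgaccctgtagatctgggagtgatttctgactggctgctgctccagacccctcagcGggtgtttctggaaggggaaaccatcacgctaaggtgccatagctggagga
Fcgr2b coding bases 278 to 457: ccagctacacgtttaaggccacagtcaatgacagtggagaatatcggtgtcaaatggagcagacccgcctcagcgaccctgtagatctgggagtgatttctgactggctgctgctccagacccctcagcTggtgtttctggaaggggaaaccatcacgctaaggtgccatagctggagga
Fcgr3 shared 63.3% of aligned coding bases with Fcgr4 (longest shared run 14 bases) and 61.5% with Fcgr1 (longest shared run 9 bases). The sources used here give neither read length nor the treatment of reads with several matches; counts within the Lyz2 and Lyz1 pair and within the Fcgr3 and Fcgr2b pair are therefore uncertain.

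The 9 members found by symbol spanned more than 4 orders of magnitude in level per length, expressed as the authors' FPKM (fragments per listed length of gene and depth of library). Cd68 was highest of these 9, with a mean over the 6 libraries of 609 FPKM (514 to 655), above 99.5% of tested genes. Fcgr1 followed at 45.5 FPKM (42.3 to 47.7) and Msr1 at 42.1 FPKM (39.9 to 45.2). The ranges of these neighbours overlapped, although Fcgr1 was the higher of the pair in 6 of 6 libraries. That order rests on the listed lengths, 2622 nt for Fcgr1 and 3964 nt for Msr1, where the mRNA lengths are 2589 and 1424 nt. Msr1 had more raw counts than Fcgr1 in every library, so per mRNA length it would be the higher. Levels per mRNA length were not computed for the other members. Adgre1 had a mean of 25.8 FPKM (21.2 to 30.2), Fcgr3 of 16.9 FPKM (15.7 to 18.5) and Apoe of 5.83 FPKM (4.91 to 6.85), with no overlap between neighbours on this scale. The mannose receptor gene Mrc1 and Cd36 were near the bottom of all tested genes: Cd36 averaged 0.254 FPKM (0.150 to 0.346) and Mrc1 0.195 FPKM (0.143 to 0.221), above only 2.30% and 1.497% of them. Their ranges overlapped, and Cd36 was the higher in 5 of 6 libraries. Mertk averaged 0.0155 FPKM (0 to 0.0464). Both rows matched to Lyz2 lay above Cd68 in every library, the scaffold row at 4635 ± 295 FPKM with albiflorin and 3729 ± 62.5 FPKM with RANKL, and the chromosome 10 row at 3954 ± 313 FPKM with albiflorin and 4086 ± 271 FPKM with RANKL (SD, n = 3 each). The cells thus carried Cd68, both listed Fc gamma receptor RNAs, Msr1 and Adgre1, while Mrc1 and Cd36 had 8 to 21 counts in a library and Mertk at most 3.

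**Figure D1:**
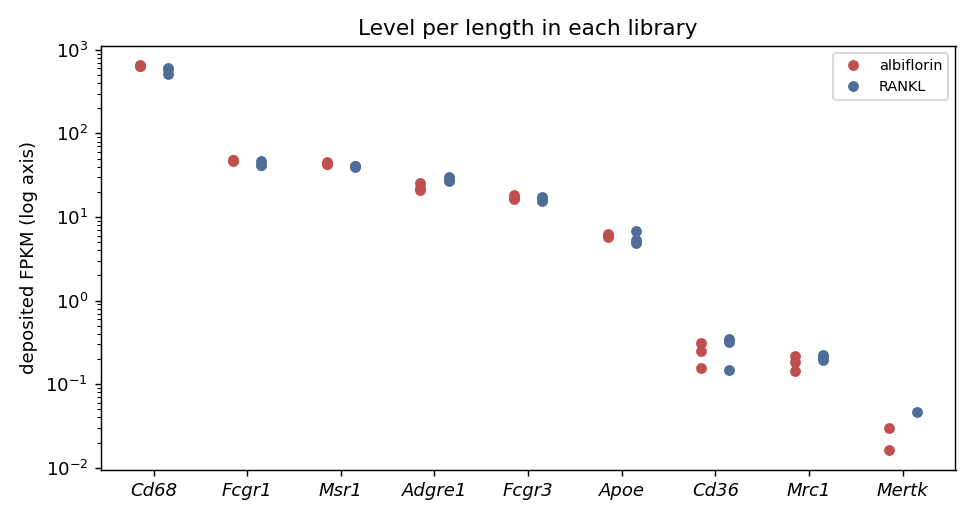
Level per length of the 9 genes found by symbol, as the authors' FPKM on a log axis, for albiflorin libraries (left of each pair) and RANKL libraries; each point is a library, and the 3 libraries in which Mertk had 0 counts are not drawn. Among these 9, Cd68 lies above all others in each library, and Mertk below all others.

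With albiflorin 1 of the 8 members tested under their own symbol passed the threshold (edgeR quasi-likelihood test, Benjamini-Hochberg adjusted p under 0.05 over 13158 tested genes): Adgre1, which fell. None of these 8 rose in edgeR, while DESeq2 called Cd68 higher; Lyz2, which has no row under its symbol and is not among the 8, is given below. Called genes made up 23.8% of all tested genes (12.4% higher, 11.4% lower), so 1 of 8 (12.5%) is no more than the background, and the median log2 fold change of the tested members was 0.06 against 0.01 for all genes. The libraries of the groups did not overlap for 3 of the 8 (Adgre1, Cd68 and Msr1), against 40.1% of all tested genes. The same 3 had an unadjusted p under 0.05, against 35.7% of all tested genes. Mertk was too low to be tested.

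Adgre1 (MGP_C57BL6NJ_G0024368, chromosome 17, 61442445 to 61567913, plus strand, in the coordinates of the deposited table) had 73.6, 69.5 and 83.2 CPM (read counts per library size, TMM-normalised) in albiflorin libraries, against 98.6, 91.1 and 88.3 CPM in RANKL libraries. Every albiflorin library lay below every RANKL library. The means were 75.4 ± 7.06 CPM with albiflorin and 92.6 ± 5.31 CPM with RANKL (SD, n = 3 each, as for every mean given with ± from here on). The log2 fold change was -0.30 (SE 0.0741, 95% interval -0.45 to -0.14), a fold of 0.815, with an edgeR adjusted p of 0.00933. Without RANKL replicate 1, the highest library, the log2 fold change was -0.25 and the call was lost (edgeR adjusted p = 0.0511). With each library's trend on mRNA length removed (an alternative added once the data had been seen), Adgre1 stayed lower at -0.28 (edgeR adjusted p = 0.0135). The mRNA of its principal transcript is 3238 nt long.

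The 3 tested genes whose profile over the 6 libraries was most like that of Adgre1, by root mean square difference of centred log2 CPM, were Gigyf2 (0.0272), which takes part in translational repression, Bcl9 (0.0273), a Wnt pathway coactivator, and Ptch1 (0.0277), the Hedgehog receptor. Their log2 fold changes were -0.35, -0.27 and -0.33, near that of Adgre1 because they were chosen by profile. None of them was on a macrophage list, but the 6 lists together hold only 101 of the 13158 tested genes.

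Cd68 (chromosome 11, 72243978 to 72245918, minus strand) had 829, 816 and 804.5 CPM in albiflorin libraries, against 753.2, 648 and 768 CPM in RANKL libraries. The albiflorin libraries lay close together and above every RANKL library, of which replicate 2 was lowest. The log2 fold change was 0.18 (SE 0.0694, 95% interval 0.03 to 0.32), which missed the threshold in edgeR (adjusted p = 0.0788) and passed it with DESeq2 (0.17, adjusted p = 0.0399). That direction turned with the trend on mRNA length removed (-0.07, edgeR adjusted p = 0.436) and with the trend on listed gene length removed (-0.09, edgeR adjusted p = 0.349). The Cd68 mRNA has 1230 nt, against 3238 nt for Adgre1, and the part of length in the opposite signs of these markers was not tested.

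**Figure D2:**
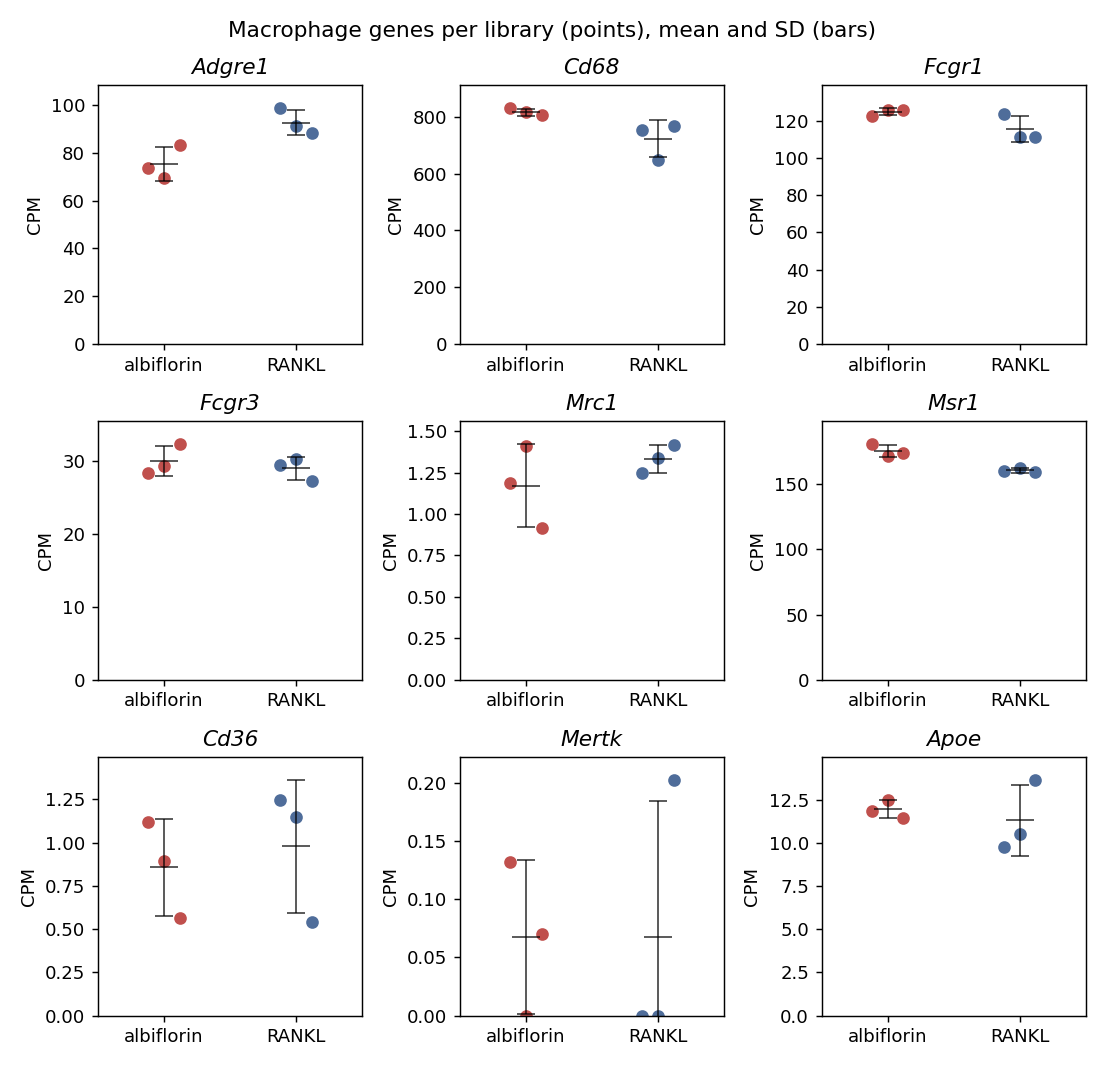
Normalised read counts (CPM, linear axis from 0, scaled for each gene) of the 9 genes found by symbol in albiflorin libraries (left) and RANKL libraries (right); points are libraries, bars the mean and SD of 3 libraries. The groups separate for Adgre1, which is lower with albiflorin, and for Cd68 and Msr1, which are higher (not so with the mRNA-length trend removed), and overlap for the other 6 genes.

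Lysozyme was counted on 2 rows with a Lyz2 protein match, and they gave different values. The row on an unplaced scaffold (bases 1 to 1682, plus strand, listed length 1355 nt) ranked 2 among all rows by total count. It had 6009.98, 6790.4 and 6178 CPM in albiflorin libraries, against 5117, 4971 and 5133 CPM in RANKL libraries. All albiflorin values were above all RANKL values, and the RANKL libraries were tightly grouped. The log2 fold change was 0.32 (SE 0.0684, 95% interval 0.17 to 0.46), with an edgeR adjusted p of 0.00378. The row on chromosome 10 (124301212 to 124304915, minus strand, listed length 509 nt) had 1859, 2049.8 and 2173 CPM in albiflorin libraries, against 2101, 2219 and 1946 CPM in RANKL libraries. Here the groups overlapped, and the log2 fold change was -0.04 (SE 0.0734; edgeR adjusted p = 0.721).

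The split of lysozyme counts between these rows was followed library by library, a comparison added once the data had been seen. Its test is therefore not independent of the fold changes above. The scaffold row held 3.23, 3.31 and 2.84 counts for each count on the chromosome 10 row in albiflorin libraries, against 2.44, 2.24 and 2.64 in RANKL libraries. The groups did not overlap; the log2 ratio was higher by 0.36 with albiflorin (exact two-sided permutation test, p = 0.1, the smallest that 3 against 3 libraries allow). Counted as 1 feature, the rows together took 0.785%, 0.868% and 0.830% of all counts in albiflorin libraries, against 0.719%, 0.728% and 0.716% in RANKL libraries. Lyz2 counted that way rose by 0.22 on the log2 scale (SE 0.0679; edgeR adjusted p = 0.0262). The summed feature was not refitted with a length trend removed, on FPKM or with a library left out. The call on the scaffold row depended on the method: its adjusted p was 0.212 with limma on log2(FPKM + 1), 0.221 on log2(FPKM + 0.1), and 0.250 in edgeR with the mRNA-length trend removed (log2 fold change 0.09). With that trend removed the chromosome 10 row was lower with albiflorin instead (-0.49, edgeR adjusted p = 0.00356). Neither row has an mRNA length of its own, so this adjustment used the listed lengths of 1355 and 509 nt. The row matched to the Lyz1 protein (chromosome 10, 124314398 to 124321038) had 1091, 1197 and 1201 CPM in albiflorin libraries, against 1096, 1125 and 1128 CPM in RANKL libraries. Its groups overlapped (log2 fold change 0.06, SE 0.063, edgeR adjusted p = 0.54). Its log2 fold change was -0.18 with the gene-length trend and -0.16 with the mRNA-length trend removed, neither called. The mRNA-length adjustment used the listed length for this row too.

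**Figure D3:**
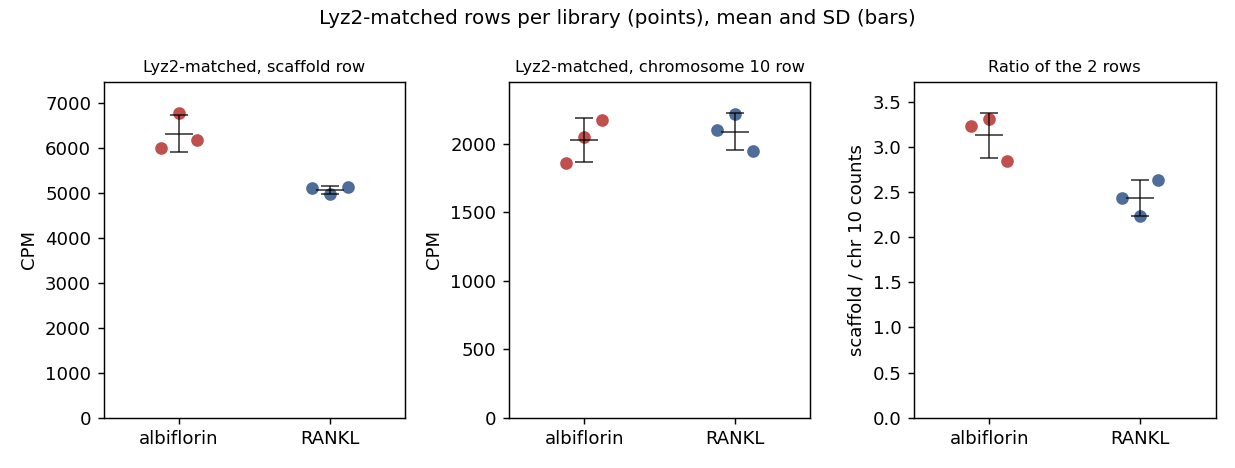
Left and middle, CPM of the scaffold row and of the chromosome 10 row matched to the Lyz2 protein; right, counts on the scaffold row for each count on the chromosome 10 row. Points are libraries, bars the mean and SD of 3, with albiflorin left of RANKL: the scaffold row and the ratio separate the groups, and the chromosome 10 row does not.

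The promoters of the most abundant members are shown because the myeloid factor PU.1 is known to act on lysozyme and Cd68 genes and because AP-1 acts downstream of RANKL. The 250 bases before the start site come from RefSeq on GRCm38.p6, whose coordinates differ from those of the deposited table. Of the 10 names, 8 had a promoter entry there; Adgre1 and Msr1 had none. Capitals mark the letters AGGAAGT, an Ets-type core bound by PU.1, which lies on the opposite strand and so reads ACTTCCT here (Lyz2 and Lyz1), or TGAGTCA, the AP-1 site (Cd68).
Lyz2 promoter, chr10:117282273-117282522, minus strand: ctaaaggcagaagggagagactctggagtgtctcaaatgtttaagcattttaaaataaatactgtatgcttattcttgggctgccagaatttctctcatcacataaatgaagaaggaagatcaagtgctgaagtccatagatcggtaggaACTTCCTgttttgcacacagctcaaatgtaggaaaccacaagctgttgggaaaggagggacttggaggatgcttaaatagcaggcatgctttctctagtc
Lyz1 promoter, chr10:117292869-117293118, minus strand: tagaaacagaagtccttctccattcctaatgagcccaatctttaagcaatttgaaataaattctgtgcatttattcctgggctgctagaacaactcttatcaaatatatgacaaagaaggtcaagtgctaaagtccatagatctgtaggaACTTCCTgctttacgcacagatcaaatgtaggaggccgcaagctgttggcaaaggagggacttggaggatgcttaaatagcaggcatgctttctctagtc
Cd68 promoter, chr11:69666171-69666420, minus strand: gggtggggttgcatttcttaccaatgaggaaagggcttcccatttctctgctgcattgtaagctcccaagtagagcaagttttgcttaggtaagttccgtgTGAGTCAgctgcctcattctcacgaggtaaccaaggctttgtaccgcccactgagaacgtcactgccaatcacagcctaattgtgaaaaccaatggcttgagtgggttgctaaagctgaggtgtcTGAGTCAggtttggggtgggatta
Searched on both strands of windows from 250 bases before to 50 bases after the start site, AGGAAGT was found for 3 members (Lyz2, Fcgr1 and Mrc1) and in 9.35% of 32851 mouse promoters. The letters GAGGAA, which can overlap AGGAAGT, were found for 5 members and in 28.3% of promoters. TGAGTCA was found for Cd68 alone among the members and in 5.20% of promoters. In Lyz2 and Lyz1 the match begins at the same distance from the start site, 100 bases before it, and Cd68 holds 2 copies of TGAGTCA. These matches describe letters, not occupied sites.

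Among the scavenger and endocytic receptors, no member passed the test. Msr1 (chromosome 8, 39804896 to 39871039, minus strand), the class A receptor for modified lipoproteins, had 180.5, 171 and 174 CPM in albiflorin libraries, against 160.3, 162 and 159 CPM in RANKL libraries. The groups did not overlap and the spread within each was small. Its log2 fold change of 0.13 (SE 0.0573, 95% interval 0.00 to 0.25) missed the threshold (edgeR adjusted p = 0.125), and it was 0.13 with the trend on listed gene length removed (edgeR adjusted p = 0.11) but -0.08 with the mRNA-length trend removed (edgeR adjusted p = 0.375). Cd36 (chromosome 5, 16469833 to 16584935, minus strand), the receptor for oxidised lipoproteins and long-chain fatty acids, had 17, 12 and 8 raw counts in albiflorin libraries, against 17, 18 and 8 in RANKL libraries. Mrc1 (chromosome 2, 12060782 to 12152451, plus strand), the mannose receptor and a usual marker of alternatively activated macrophages, had 18, 19 and 13 raw counts in albiflorin libraries, against 17, 21 and 21 in RANKL libraries. At these depths only large changes could be seen: the 95% intervals of the log2 fold change ran from -1.06 to 0.71 for Cd36 and from -0.88 to 0.50 for Mrc1 (edgeR adjusted p 0.806 and 0.722).

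**Figure D4:**
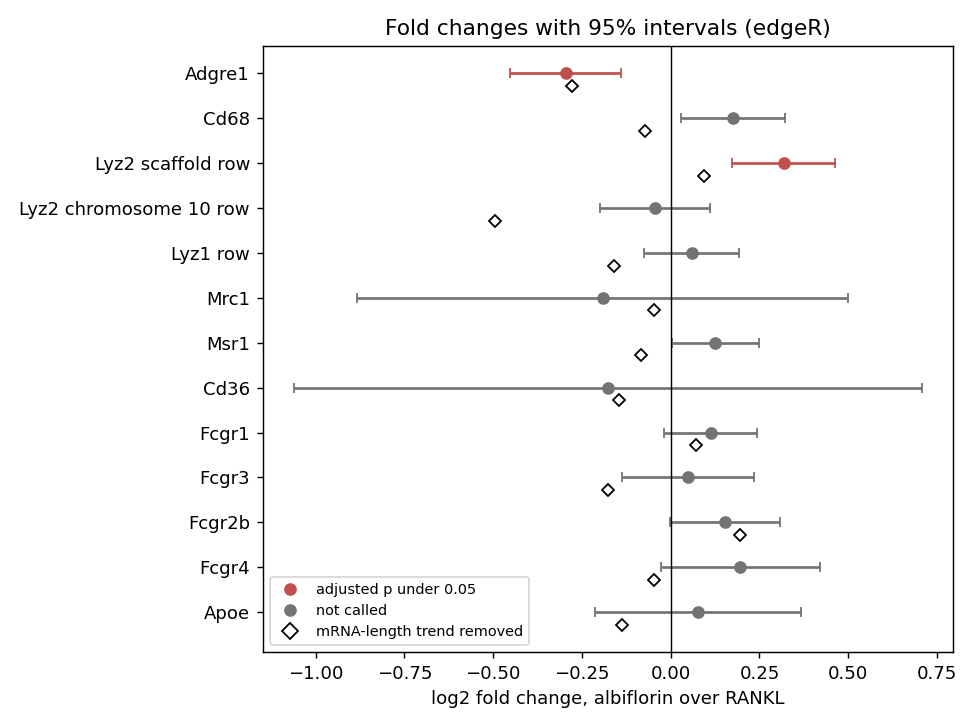
Log2 fold change, albiflorin over RANKL, of the tested members, the rows matched to Lyz2 and Lyz1, and the Fc gamma receptor paralogs; circles are edgeR estimates with 95% intervals, red where the adjusted p is under 0.05, and diamonds the estimate with the mRNA-length trend removed. Adgre1 and the Lyz2 scaffold row are the red ones, and the diamonds of Cd68, Msr1, Fcgr3, Fcgr4, Apoe and the Lyz1 row lie on the other side of 0 from their circles.

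The other scavenger receptors gave 11 tested genes of 21, of which 1 rose and 2 fell. That is 27.3% called, against 23.8% of all tested genes, with a median log2 fold change of -0.13. Lrp1, a large endocytic receptor for remnant lipoproteins and calreticulin whose row was found by its protein match, fell to 511 ± 61.2 CPM with albiflorin, against 792 ± 19.7 CPM with RANKL. Its log2 fold change was -0.63 (SE 0.0773, edgeR adjusted p = 0.000191), and -0.27 with the mRNA-length trend removed (edgeR adjusted p = 0.00449). That adjustment used the listed length of 17719 nt, because the row has no symbol to give an mRNA length. Scarb2, a lysosomal membrane protein of the Cd36 family, fell by 0.20 on the log2 scale (SE 0.0637; edgeR adjusted p = 0.035). That call was lost without RANKL replicate 1, RANKL replicate 2 or albiflorin replicate 1, where the change was -0.17, -0.16 and -0.18, and with the mRNA-length trend removed (-0.09, edgeR adjusted p = 0.345). Cxcl16, which serves as a scavenger receptor for oxidised lipoprotein at the cell surface and as a chemokine, rose to 59.0 ± 5.65 CPM with albiflorin, against 47.2 ± 4.08 CPM with RANKL (log2 fold change 0.32, SE 0.0853; edgeR adjusted p = 0.0121). It was not called without RANKL replicate 2 (0.26, edgeR adjusted p = 0.0672) or without albiflorin replicate 1 (0.26, edgeR adjusted p = 0.0835), nor with limma on log2(FPKM + 1) (adjusted p = 0.051). Marco, Cd163 and Scara5 were at 0 counts in each of the 6 libraries; 0 counts allow a level of up to 0.191 to 0.223 CPM, depending on the library (3 counts, counting error only).

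The Fc gamma receptor genes did not pass the test in either direction. Fcgr1 (chromosome 3, 100653575 to 100664590, minus strand), the high-affinity receptor known as CD64, had 123, 126 and 126 CPM in albiflorin libraries, against 123, 111 and 111 CPM in RANKL libraries. RANKL replicate 1 lay among the albiflorin libraries, and the log2 fold change was 0.11 (SE 0.0619, 95% interval -0.02 to 0.24; edgeR adjusted p = 0.204). Fcgr3 (chromosome 1, 182662753 to 182707677, minus strand), a low-affinity activating receptor, had 28.4, 29.4 and 32.3 CPM in albiflorin libraries, against 29.4, 30.3 and 27.3 CPM in RANKL libraries. Those groups overlapped, and the log2 fold change was 0.05 (SE 0.0878, 95% interval -0.14 to 0.23; edgeR adjusted p = 0.738). It was -0.14 with the trend on listed gene length removed (edgeR adjusted p = 0.333), -0.18 with the mRNA-length trend removed (edgeR adjusted p = 0.259) and -0.0084 without albiflorin replicate 3.

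Fcgr2b and Fcgr4 lie beside Fcgr3 in a region of 144.6 kb on chromosome 1. Fcgr2b, the only inhibitory receptor of the family, had 55.0, 51.7 and 51.1 CPM in albiflorin libraries, against 49.99, 44.8 and 47.2 CPM in RANKL libraries. The groups did not overlap, but the change was not called (log2 fold change 0.15, SE 0.0726; edgeR adjusted p = 0.141), except with the trend on listed gene length removed (0.22, edgeR adjusted p = 0.0416). Fcgr4, a further activating receptor, averaged 18.7 ± 1.95 CPM with albiflorin and 16.4 ± 0.486 CPM with RANKL (log2 fold change 0.20, SE 0.106; edgeR adjusted p = 0.198), and its log2 fold change was -0.07 with the gene-length trend and -0.05 with the mRNA-length trend removed. Per listed length Fcgr3 was above Fcgr2b: 17.2 FPKM with albiflorin and 16.7 FPKM with RANKL, against 9.26 and 8.36 FPKM for Fcgr2b. The ratio of Fcgr3 to Fcgr2b counts, not divided by length, served only to compare the groups. It was 0.517, 0.568 and 0.633 in albiflorin libraries, against 0.589, 0.677 and 0.579 in RANKL libraries. The groups overlapped; the difference in log2 ratio, albiflorin minus RANKL, was -0.10 (exact two-sided permutation test, p = 0.4, where 0.1 is the smallest possible).

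Genes listed as partners of these receptors, with Fcgr2b and Fcgr4 counted among them, did pass in part. Of these 15 tested genes 2 rose and 3 fell (33.3% called, against 23.8% of all tested genes, median log2 fold change -0.01). Fcer1g, the signalling chain that Fcgr1, Fcgr3 and Fcgr4 need, rose to 173 ± 18.7 CPM with albiflorin, against 139.9 ± 2.53 CPM with RANKL (log2 fold change 0.30, SE 0.0719; edgeR adjusted p = 0.00664). Its direction turned with the mRNA-length trend removed (-0.10, edgeR adjusted p = 0.282). The kinase gene Syk, which acts on that chain, fell by 0.28 (SE 0.0669; edgeR adjusted p = 0.00703), but was not called with the trend removed (-0.14, edgeR adjusted p = 0.114). Inpp5d, which encodes the inhibitory lipid phosphatase SHIP, fell to 192 ± 19.5 CPM with albiflorin, against 239 ± 8.83 CPM with RANKL (log2 fold change -0.32, SE 0.0713; edgeR adjusted p = 0.00473), and stayed called with the trend removed (-0.20, edgeR adjusted p = 0.0301). Ptpn6, which encodes the phosphatase SHP-1, rose by 0.21 (SE 0.0625; edgeR adjusted p = 0.0215), a call lost without RANKL replicate 2 (adjusted p = 0.0828), without albiflorin replicate 1 (adjusted p = 0.15) and with the trend removed (0.13, edgeR adjusted p = 0.116). Ptpn6 was also not called with the trend on listed gene length removed (edgeR adjusted p = 0.107) or with limma on log2(FPKM + 1) and log2(FPKM + 0.1) (adjusted p 0.0508 and 0.0511). With the mRNA-length trend removed Inpp5d was the 1 gene of these 15 still called. Without albiflorin replicate 3, with no trend removed, 5 of the 15 fell rather than 3.

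Mertk (chromosome 2, 136171974 to 136284074, plus strand), a receptor tyrosine kinase for apoptotic cells, had 2, 0 and 1 raw counts in albiflorin libraries, against 0, 0 and 3 in RANKL libraries. All 6 values lay at or under 3 counts, so no fold change was computed. Its relatives Axl and Tyro3 were also low, at 2.11 ± 1.14 and 0.817 ± 0.101 CPM with albiflorin, against 2.16 ± 0.287 and 0.901 ± 0.147 CPM with RANKL. Their ligand genes were better measured but not called: Gas6 had a log2 fold change of -0.10 (edgeR adjusted p = 0.433) and Pros1 of -0.12 (edgeR adjusted p = 0.222). Of 19 tested genes for the uptake of apoptotic cells 1 rose and 2 fell. That is 15.8% called, against 23.8% of all tested genes, with a median log2 fold change of -0.11. Anxa1, a phospholipid-binding protein that apoptotic cells expose, rose to 378 ± 35.4 CPM with albiflorin, against 279.95 ± 7.98 CPM with RANKL (log2 fold change 0.43, SE 0.0696; edgeR adjusted p = 0.000693). Dock1, the exchange factor that activates Rac during engulfment, fell to 67.4 ± 8.60 CPM with albiflorin, against 95.5 ± 8.84 CPM with RANKL (log2 fold change -0.50, SE 0.0877; edgeR adjusted p = 0.00109). The other gene that fell was Lrp1, described above. All 3 kept their call with the mRNA-length trend removed (Anxa1 0.26, Dock1 -0.30, and Lrp1 on its listed length).

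Apoe (chromosome 7, 18610015 to 18613072, minus strand), the lipoprotein that macrophages release with cholesterol, had 11.9, 12.5 and 11.5 CPM in albiflorin libraries, against 9.76, 10.5 and 13.6 CPM in RANKL libraries. RANKL replicate 3 was the highest of all 6 and the other RANKL libraries the lowest, so the groups overlapped. The coefficient of variation was 4.33% with albiflorin and 18.1% with RANKL, and the log2 fold change was 0.08 (SE 0.137, 95% interval -0.21 to 0.37; edgeR adjusted p = 0.734). It was -0.08 with the trend on listed gene length removed (edgeR adjusted p = 0.729), -0.14 with the mRNA-length trend removed (edgeR adjusted p = 0.568) and -0.015 without RANKL replicate 1. Of 21 tested genes of macrophage lipid handling 4 rose and 3 fell. That is 33.3% called, against 23.8% of all tested genes, with a median log2 fold change of -0.00. Cd9, a tetraspanin, rose to 311 ± 29.5 CPM with albiflorin, against 233 ± 6.32 CPM with RANKL (log2 fold change 0.41, SE 0.0694; edgeR adjusted p = 0.000865). Fabp5, a fatty acid carrier, rose by 0.39 (SE 0.0803; edgeR adjusted p = 0.00288). Neither was called with the mRNA-length trend removed (Cd9 0.16, edgeR adjusted p = 0.0737; Fabp5 0.08, edgeR adjusted p = 0.513). Ppard, a nuclear receptor for fatty acids, fell to 33.6 ± 3.52 CPM with albiflorin, against 45.9 ± 2.19 CPM with RANKL, by 0.45 on the log2 scale (SE 0.0862; edgeR adjusted p = 0.00193) and by 0.43 with the trend removed (edgeR adjusted p = 0.00376). Abcg1, which exports cholesterol, fell by 0.26 (SE 0.0622; edgeR adjusted p = 0.0068), a call lost with the trend removed (-0.10, edgeR adjusted p = 0.22). The number of lipid genes called higher was 2 rather than 4 without any 1 of RANKL replicates 1 to 3 or albiflorin replicates 1 and 2.

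Macrophage identity genes outside the members gave 28 tested genes, of which 10 rose and 6 fell. That is 57.1% called, against 23.8% of all tested genes, with a median log2 fold change of 0.05. With the mRNA-length trend removed 4 were higher and 5 lower, against 661 higher and 718 lower of all 13158 tested genes. Cd53, a leukocyte tetraspanin, rose to 476 ± 17.3 CPM with albiflorin, against 375 ± 15.3 CPM with RANKL (log2 fold change 0.34, SE 0.061; edgeR adjusted p = 0.00124). Lgals3, the galectin of activated macrophages, rose to 713 ± 40.0 CPM with albiflorin, against 545 ± 48.6 CPM with RANKL (log2 fold change 0.39, SE 0.0724; edgeR adjusted p = 0.00161). Both stayed called with that trend removed (Cd53 0.19, edgeR adjusted p = 0.0361; Lgals3 0.18, edgeR adjusted p = 0.0353), although Cd53 was not with the trend on listed gene length removed (0.15, edgeR adjusted p = 0.0887). Clec4d, a C-type lectin receptor, rose by 0.46 (SE 0.0864; edgeR adjusted p = 0.00168) and was not called with the mRNA-length trend removed (0.23, edgeR adjusted p = 0.0681). Tyrobp, the adaptor of Trem2 and other myeloid receptors, rose to 299.6 ± 35.3 CPM with albiflorin, against 226 ± 16.1 CPM with RANKL (log2 fold change 0.41, SE 0.0798; edgeR adjusted p = 0.0022), a direction that turned with that trend removed (-0.03, edgeR adjusted p = 0.709). The remaining called genes were chosen after their values were seen and included Itgam, found by its protein match (0.40), and the transcription factor genes Spi1 (0.31) and Cebpb (0.31), which rose, and Siglec1 (-0.61), Laptm5 (-0.32), Mpeg1 (-0.30) and Cx3cr1 (-0.23), which fell. With the mRNA-length trend removed Cebpb (0.12, edgeR adjusted p = 0.305) and Cx3cr1 (-0.13, edgeR adjusted p = 0.0996) were not called, and Cebpb was also not called with the gene-length trend removed (0.09, edgeR adjusted p = 0.452). Without albiflorin replicate 1 the number of genes that fell was 3.

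**Figure D5:**
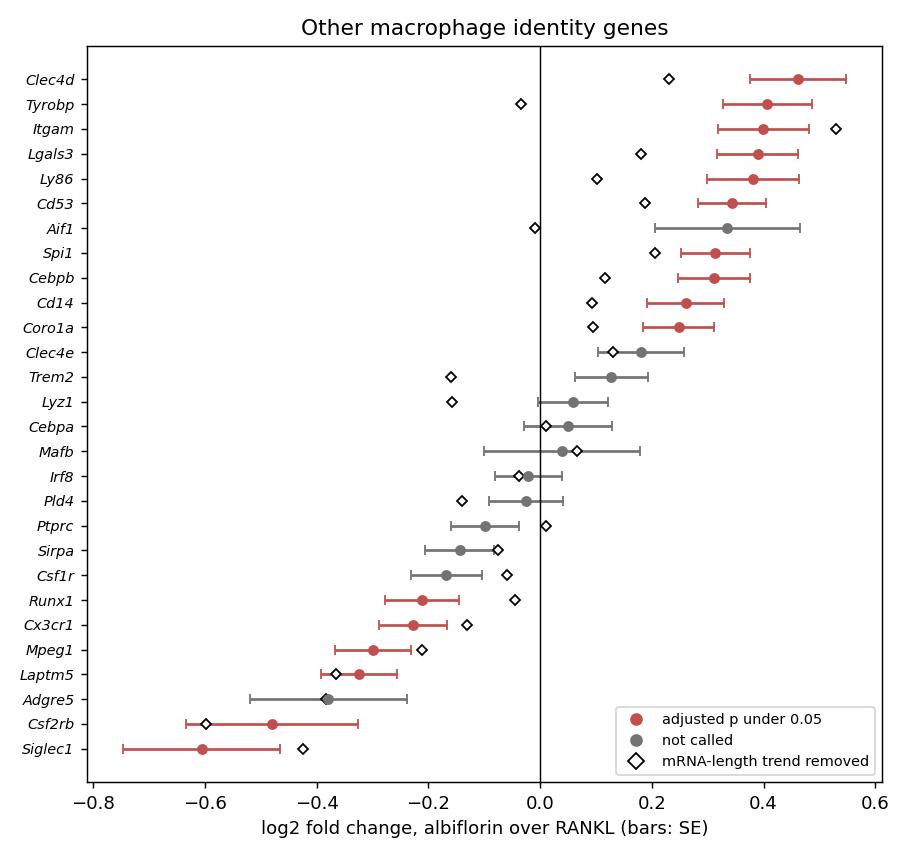
Log2 fold change, albiflorin over RANKL, of the 28 tested genes of macrophage identity outside the members; circles are edgeR estimates with their SE, red where the adjusted p is under 0.05, and diamonds the estimate with the mRNA-length trend removed. Genes are ordered by fold change, with 10 called higher and 6 called lower; the diamonds of most genes lie nearer 0 than their circles.

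Genes of alternative activation, of which Mrc1 is the usual marker, were mostly low. Of 15 names 8 were tested, 1 rose and 0 fell in edgeR. That is 12.5% called, against 23.8% of all tested genes, with a median log2 fold change of 0.15. With DESeq2 or at an unadjusted edgeR p under 0.05, 0 fell. The gene that rose was Socs3, a cytokine-induced inhibitor of JAK and STAT signalling, at 39.6 ± 5.43 CPM with albiflorin and 23.9 ± 1.64 CPM with RANKL (log2 fold change 0.73, SE 0.102; edgeR adjusted p = 0.000368; 0.68 with the mRNA-length trend removed). Chil3 and Retnla, effector genes of that state, had 0 counts in all 6 libraries. So did C1qa, C1qb and C1qc, the complement chains of resident macrophages, and Timd4, a phosphatidylserine receptor.

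Marker sums of the other cell types given here were small, except for osteoclasts, where Car2 made up most of the sum. The 10 osteoclast marker genes summed to 964 to 1108 CPM in albiflorin libraries, against 829 to 844 CPM in RANKL libraries, without overlap. Car2, a carbonic anhydrase, alone averaged 949 ± 78.1 CPM with albiflorin, against 777 ± 8.59 CPM with RANKL (log2 fold change 0.29; edgeR adjusted p = 0.00594), and was not called with the mRNA-length trend removed (0.14, edgeR adjusted p = 0.107). Acp5, the osteoclast acid phosphatase, rose by 0.29 (edgeR adjusted p = 0.0371) and was likewise not called then (0.08, edgeR adjusted p = 0.617). Dcstamp (0.05), Ocstamp (0.30), Mmp9 (0.48), Atp6v0d2 (0.37) and Itgb3 (-0.75) were not called. Calcr was at 0, and Ctsk averaged 0.693 CPM with albiflorin and 0.457 CPM with RANKL, Oscar 0.120 CPM with albiflorin and 0.113 CPM with RANKL, too low to test. The 9 members found by symbol summed to 1227 to 1249 CPM in albiflorin libraries, against 1056 to 1177 CPM in RANKL libraries. Cd68 made up most of that sum, at 817 CPM with albiflorin and 723 CPM with RANKL. Its change was called with DESeq2 but not in edgeR. Summed markers reached at most 14.4 CPM for dendritic cells, 5.57 CPM for monocytes, 4.08 CPM for T cells, 3.52 CPM for fibroblasts and 1.04 CPM for neutrophils in any library, and their group ranges overlapped. At 0 in all libraries were Cd209a, the monocyte markers Ly6c2, F13a1 and Plac8, the T cell markers Cd3e and Cd8a, the fibroblast markers Dcn and Pdgfra, and the neutrophil markers S100a9, Ly6g and Ngp. Detected well enough to be tested, with mean CPM for albiflorin and then RANKL, were Zbtb46 (8.83, 7.79) and Itgax (3.57, 3.70) for dendritic cells. The others tested were Ccr2 (5.03, 4.32) for monocytes, Lck (2.96, 3.05) for T cells and Pdgfrb (2.65, 2.73) for fibroblasts. None of these was called. The part of the higher Car2 and Acp5 levels in the lower Adgre1 level was not tested.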

How the data were processed

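RNA sequencing libraries (3 albiflorin, 3 RANKL) were grouped by title, and table columns were matched to them by group letter and number. The deposited table holds whole-number counts per gene; FPKM, in another table by the authors, equals the count over listed gene length and over 1 scaling total for each library (-0.950% to 1.65% from the sum of its column). Per the submitters' processing notes HISAT2 2.2.1, featureCounts 2.0.6-p3, fastp, CASAVA 1.8 and DESeq2 1.42.0 were used, in roles and an order left unstated. The sources used here give neither genome build nor strand use, and genes that overlap, in sense or antisense, may have shared reads; gene IDs carry the prefix Ensembl uses for C57BL/6NJ, while RAW264.7 is of BALB/c origin.

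Counts were tested with edgeR 4.0.16 in R 4.3.3 (filterByExpr, TMM scaling, quasi-likelihood F-test on group, Benjamini-Hochberg over 13158 genes, threshold 0.05). SE values come from the F statistic (log2 fold change over its root). CPM use TMM-scaled library sizes; intervals and floors cover counting error or library spread only. The steps were tested on simulated data. Alternatives were RLE scaling, DESeq2 1.42.0, limma-voom (limma 3.58.1), no filter, a filter of 50 counts in 3 libraries, limma on log2(FPKM + 1) and log2(FPKM + 0.1), each library left out in turn, the replicate number as a block, and removal from each library of a lowess trend (span 0.3, genes with mean log2 CPM over 3) on listed gene length. Added after seeing the data were the same removal on mRNA length (GENCODE M21 principal transcripts, by symbol) and the Lyz2 rows summed. Rows without such a length, among them those found by protein match, kept their listed length in that removal.

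All 10 members, Fcgr2b, Fcgr4 and Lyz1 are named whatever their result, with up to 4 called genes of smallest p from each of 6 lists and the 3 profiles most like each called member. The lists hold 128 symbols, of which 121 matched by symbol and 5 by a single protein match (Lrp1, Itgam, Lyn, Csf2rb and Lyz1). Members and lists were chosen with earlier results of these data known. Other genes named were chosen after their values were seen. 1 marker list is not reported here.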

Additional observations from a re-analysis of the deposited data

How the results depend on the processing

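Members: Adgre1 was lower in every alternative run, with log2 fold changes of -0.37 to -0.25 when 1 library was left out, and lost its call without RANKL replicate 1; the number of members called lower was thus 0 to 1 and of those called higher 0. With DESeq2 1 member, Cd68, was called higher. Over all genes, 1631 were higher and 1496 lower; leaving out 1 library gave 984 to 1753 higher and 914 to 1644 lower, among them 1010 and 914 without RANKL replicate 2, 984 and 977 without albiflorin replicate 1, and 1025 and 999 without albiflorin replicate 2. Removing the gene-length trend gave 945 higher and 1048 lower, and removing the mRNA-length trend 661 and 718; 901 were lower on log2(FPKM + 1) and 909 on log2(FPKM + 0.1). Of the 6 lists together 19 genes were higher and 15 lower (33.7% of 101, against 23.8% of all tested genes). With 1 library left out 14 to 18 were higher and 9 to 20 lower (9 without albiflorin replicate 1). With the mRNA-length trend removed 9 were higher, and on log2(FPKM + 0.1) 9 were lower. Tyrobp and Fcer1g reversed with the gene-length trend (-0.0093 and -0.039) and the mRNA-length trend (-0.034 and -0.10) removed; the cause was not tested. With 1 library left out, the group difference in log2 ratio was -0.18 to -0.03 for Fcgr3 to Fcgr2b and 0.30 to 0.43 for the Lyz2 rows. Both differences are the same in FPKM by construction, because listed lengths and library totals cancel. The order of the members by FPKM did not change. Same-numbered libraries correlated at 0.104, -0.126 and -0.212 in their deviations from group means, against -0.111 to 0.223 for differently numbered libraries. No pairing by number was seen, but this check cannot exclude that same-numbered libraries were prepared together. With the replicate number as a block 1358 genes were higher and 1214 lower, with 0 and 1 members and 17 and 12 list genes. Scarb2 then lost its call (edgeR adjusted p = 0.0703). The ratio differences stayed at -0.10 and 0.36, which the balanced design fixes in advance. At 8 to 21 counts in a library, Cd36 and Mrc1 could show only large changes.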
